A study of Mus musculus with 8 samples.

Results

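The ATF4 arm of the integrated stress response was followed through 10 mouse genes: Atf4, Atf5, Ddit3, Atf3, Cebpb, Asns, Chac1, Trib3, Ddit4 and Sesn2. Their probe sets are all those that the platform annotation assigns to these genes; no measured value enters that rule, but the 10 genes were proposed with earlier results of these data known. This gave 10 genes of the 18194 that had a probe set with a single gene symbol, and 17 probe sets of 45101. All 10 genes and 15 of the 17 probe sets had a mean level above the filter for low values, and 0 of the 17 were shared with another gene.

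In the integrated stress response, kinases that sense amino acid shortage, unfolded protein in the endoplasmic reticulum, viral RNA or lack of haem phosphorylate the initiation factor eIF2. Most translation then falls while translation of the mRNA for ATF4, a basic leucine zipper transcription factor, rises. ATF4 and its partners switch on genes for amino acid supply and redox defence, and under lasting stress the CHOP protein encoded by Ddit3. Because ATF4 is controlled largely at translation, the Atf4 mRNA measured here is not a measure of ATF4 protein, and neither protein nor phosphorylated eIF2 was measured.

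Total RNA labelled as mouse cerebral cortex was hybridised to 8 arrays, 1 per sample, in 4 groups of 2. The groups were FGF2 with U0126, FGF2 with SB202190, FGF2 alone and a vehicle control. Every inhibitor sample thus also received FGF2, and no group received an inhibitor without it. Fibroblast growth factor-2 (FGF2) is a mitogen of astrocytes, the title of the study names an astroglial response, U0126 blocks the MEK kinases upstream of ERK, and SB202190 blocks p38 kinases. Doses, times, strain, age, and whether cells were cultured are not given in the labels. Replicate 2 of FGF2 with SB202190 has another word for its type of treatment in the labels than the other 7 samples, and it was kept in its group. The labels do not state that the replicates had separate origins, so the p-values cover the spread between these particular samples, and that spread may be technical.

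Values are signals, the deposited linear intensities, which have no unit. Changes are differences of normalized log2(signal + 1.77) with their SE, folds are on the same scale, and "called" means an adjusted p below 0.05. The median signal of an array was 27.8 and 26.6 in vehicle and 22.3 to 24.3 in the groups with FGF2. The filter corresponded to a signal of about 12.4. Replicates correlated at r of 0.980 to 0.984 over all genes tested, and arrays of different groups at 0.947 to 0.981. All 10 astrocyte markers were above the filter, with summed signals of 16570 to 16860 in FGF2 with U0126, 13110 to 13290 in FGF2 with SB202190, 13420 to 13540 in FGF2 and 24960 to 25210 in vehicle. Of the other lists, 2 of 8 microglial markers (Tmem119 and Csf1r) and 2 of 5 oligodendrocyte markers (Mbp and Cldn11) were above the filter. So were 3 of 7 neuronal markers (Syt1, Tubb3 and Gad1) and 2 of 5 endothelial markers (Cdh5 and Flt1). Their median signals over the arrays ran from 13.2 for Gad1 to 101 for Tubb3. The rest of these lists was below the filter, among them Aif1, Cx3cr1, Mog, Mag, Snap25, Rbfox3, Slc17a7, Pecam1 and Cldn5. Oligodendrocyte precursor markers, 4 of 5 above the filter with Gpr17 below it, summed to 2282 to 2385 in FGF2 with U0126, 2674 to 2828 in FGF2 with SB202190, 3357 to 3430 in FGF2 and 1822 to 1835 in vehicle. This sum mainly reflects Olig1, with a median signal of 2387 over the arrays. The medians of Pdgfra, Sox10 and Cspg4 were 128, 28.0 and 12.1. Ependymal markers, 6 of 6 above the filter, summed to 2281 to 2328 in FGF2 with U0126, 1190 to 1257 in FGF2 with SB202190, 1517 to 1597 in FGF2 and 3620 to 3775 in vehicle. Markers of meningeal fibroblasts and pericytes, 6 of 6, summed to 4366 to 4509, 3797 to 4323, 4453 to 4703 and 8789 to 8791 in the same order of groups. In bulk RNA, fewer cells of a type and less RNA per cell cannot be told apart.

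Promoters of the 10 genes, the 250 bases before and 50 after each RefSeq start in the GRCm38.p6 build, were searched for the letters shared by C/EBP-ATF response elements, TGATGNAA, on both strands. All 10 genes matched, with 11 windows because Atf5 has 2 starts. The letters occurred in 4 of the 11 windows, those of Asns, Atf3, Chac1 and Trib3, and in 3.97% of all 32851 promoter windows. The letters of the cAMP response element, TGACGTCA, were in 0 of the 11 windows and in 1.79% of all. A match is a description of the letters and not a bound site, and the 3 upstream windows that hold it are shown with the match in capitals, 5′ to 3′ on the strand of the gene, because with FGF2 Asns rose, Atf3 fell and Chac1 was not called, although U0126 against FGF2 raised all 3. In Asns (chr6:7693210-7693459, minus strand) the match starts 23 bases upstream of the start, in Atf3 (chr1:191183334-191183583, minus strand) 110 bases upstream on the opposite strand, in Chac1 (chr2:119350992-119351241, plus strand) 193 bases upstream on the opposite strand, and in Trib3 14 bases downstream of the start on the opposite strand.
Asns: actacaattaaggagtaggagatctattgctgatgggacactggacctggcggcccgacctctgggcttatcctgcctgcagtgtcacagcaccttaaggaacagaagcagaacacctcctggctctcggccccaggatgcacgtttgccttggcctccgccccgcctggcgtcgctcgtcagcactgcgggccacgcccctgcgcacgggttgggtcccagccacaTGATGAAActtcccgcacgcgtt
Atf3: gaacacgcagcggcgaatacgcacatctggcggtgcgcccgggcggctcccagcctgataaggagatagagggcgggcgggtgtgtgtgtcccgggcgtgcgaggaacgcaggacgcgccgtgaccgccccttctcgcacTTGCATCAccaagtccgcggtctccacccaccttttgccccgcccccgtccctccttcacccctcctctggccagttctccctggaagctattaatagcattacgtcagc
Chac1: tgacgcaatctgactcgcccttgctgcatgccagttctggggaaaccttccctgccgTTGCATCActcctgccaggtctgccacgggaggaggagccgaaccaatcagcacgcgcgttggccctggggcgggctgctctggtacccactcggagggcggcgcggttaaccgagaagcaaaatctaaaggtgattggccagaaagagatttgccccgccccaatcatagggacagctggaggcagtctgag

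The 10 genes did not move as a group with FGF2. Against vehicle, 2 of them rose, 3 fell and 5 were not called, while 37.9% of all 13174 genes tested were called, 18.9% higher and 19% lower. Asns rose 4.98-fold and Atf5 2.44-fold, whereas Atf3 fell 7.01-fold and Ddit4 and Cebpb fell 1.35-fold and 1.36-fold. The median change of the 10 genes was -0.24, against -0.0039 over all genes tested. With 5 of 10 called, the share of members that changed was not far from the background.

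Adding U0126 to FGF2 was followed by a different picture. Against FGF2 alone 8 of the 10 genes rose, 0 fell, and Ddit4 and Sesn2 were not called, while 22.1% of all genes tested were called, 11.6% higher and 10.5% lower. Trib3 rose by 3.65 ± 0.60 on the log2 scale, but its FGF2 signals of 20.8 and 2.74 averaged below the filter, and the rise was 2.49 without replicate 2 of FGF2 and 2.45 with a pseudocount of 16. Atf3 rose 2.96-fold, a log2 change of 1.57 that was 0.90 without replicate 1 of FGF2. The others were Ddit3 at 2.47-fold, Chac1 at 2.18-fold, Atf5 at 1.65-fold, Cebpb at 1.57-fold, Atf4 at 1.56-fold and Asns at 1.35-fold. The share called higher was thus well above the background, and the median change was 0.69, against 0.03 over all genes tested. The 10 genes were proposed with earlier results of these data known, so this excess is not independent support. Both inhibitor comparisons use the same FGF2 arrays. The 3' to 5' ratio of Actb, which reflects RNA integrity, was 1.28 and 1.26 with FGF2 and U0126, against 1.35 and 1.38 with FGF2. With FGF2 and SB202190 it was 1.41 and 1.4. The same ratio of Gapdh was 0.745 and 0.758 with FGF2 and U0126, 0.753 and 0.697 with FGF2 and SB202190, and 0.777 and 0.758 with FGF2. Neuronal markers summed to 115.7 to 148.1 with FGF2 and U0126, against 195.4 to 207.2 with FGF2. Endothelial markers summed to 54.28 to 54.61, against 100.4 to 117.5, and oligodendrocyte markers to 62.16 to 67.22, against 39.46 to 57.16. The part of these ratios and of the astrocyte, ependymal, oligodendrocyte precursor, neuronal, endothelial and oligodendrocyte marker sums in the U0126 results was not tested. Between FGF2 and vehicle these marker sums and that of fibroblasts and pericytes also differed. Their part in the FGF2 results was not tested either.

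SB202190 added to FGF2 gave 1 call among the 10 genes, a rise of Ddit3 of 1.38-fold, and 9 genes were not called, while 3.02% of all genes tested were called, 1.32% higher and 1.7% lower. The median change was 0.04, against -0.0048 over all genes tested. Set directly against FGF2 with SB202190, FGF2 with U0126 had 6 of the 10 genes higher and 0 lower, against a background of 22.7% called, 12.4% higher and 10.3% lower, with a median of 0.73 against 0.02 over all genes. The 6 genes were Atf5, Ddit3, Trib3, Chac1, Asns and Cebpb.

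**Figure D1:**
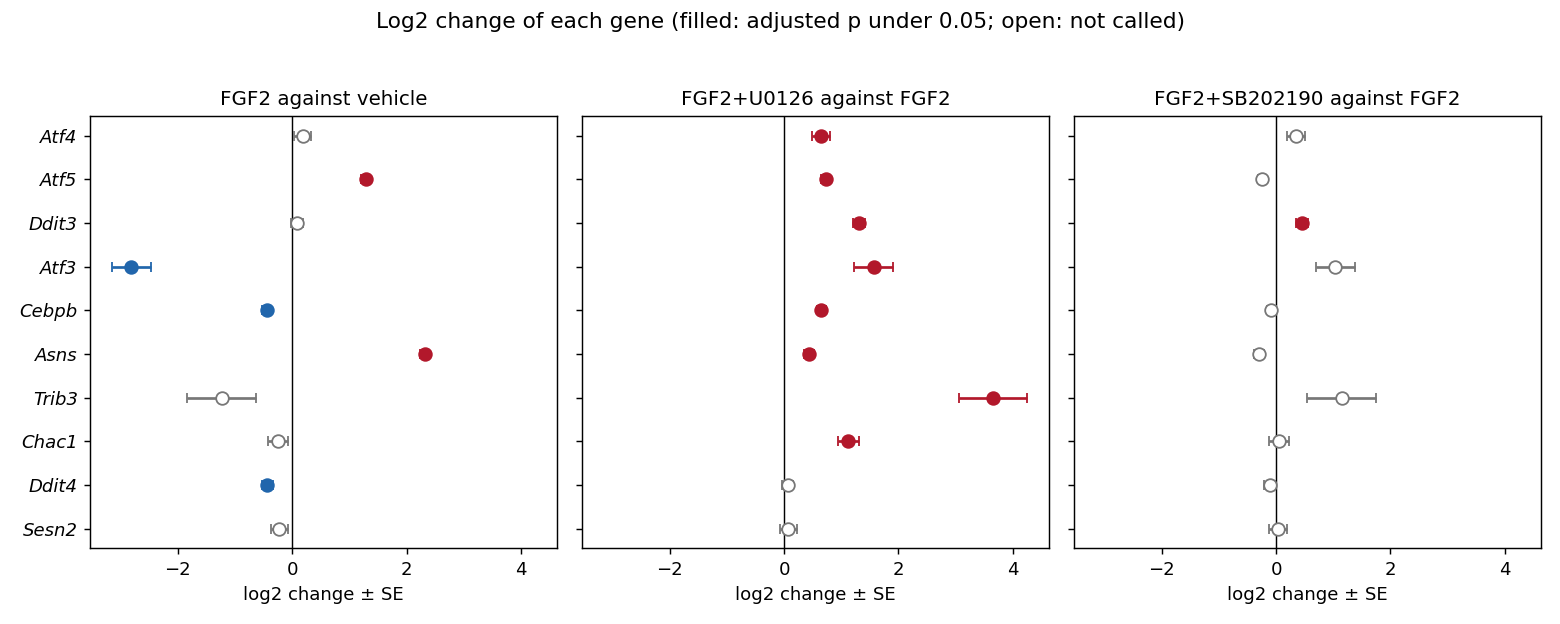
Log2 changes with their SE of the 10 genes in FGF2 against vehicle, FGF2 with U0126 against FGF2 and FGF2 with SB202190 against FGF2, where filled points (red higher, blue lower) had an adjusted p under 0.05 and open points did not. With U0126 8 genes lie to the right of 0 and are called, with Trib3 farthest out at 3.65, whereas with FGF2 against vehicle the called genes lie on both sides, from -2.81 for Atf3 to 2.32 for Asns.

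Atf4 itself, the factor that gives the response its name, was not called between FGF2 and vehicle and was higher with U0126. Its probe set 1448135_at had signals of 720 and 486 in FGF2 with U0126, 485 and 480 in FGF2 with SB202190, 340 and 419 in FGF2, and 356 and 308 in vehicle. The FGF2 and vehicle arrays overlapped, and replicate 1 of FGF2 with U0126 stood above all other arrays while replicate 2 was level with the SB202190 arrays. The change was 0.18 ± 0.15 with FGF2 against vehicle (adjusted p = 0.394) and 0.64 ± 0.15 with U0126 against FGF2 (adjusted p = 0.00944). This call was lost when replicate 1 of FGF2 with U0126 was left out, at 0.35 with an adjusted p of 0.102, and without replicate 1 of FGF2, at 0.49 with an adjusted p of 0.105. With SB202190 the value was 0.35 ± 0.15 (adjusted p = 0.271), and U0126 against SB202190 gave 0.29 (95% interval -0.04 to 0.63), a difference that was not called, but was called without replicate 2 of FGF2 with U0126 (0.58, adjusted p = 0.0117). Against vehicle, both inhibitor groups had higher Atf4, by 0.82 with U0126 (adjusted p = 0.00115) and by 0.53 with SB202190 (adjusted p = 0.0163). A variance prior that ignores intensity left the SB202190 value uncalled (adjusted p = 0.121). The SB202190 value missed the threshold without either SB202190 array or without vehicle replicate 2, with adjusted p of 0.0696 to 0.122. A second probe set, 1438992_x_at, had means of 210 ± 49.5 in FGF2 with U0126, 208 ± 40.4 in FGF2 with SB202190, 154 ± 20.4 in FGF2 and 140 ± 1.06 in vehicle (SD, n = 2 each). Its change with U0126 against FGF2 was 0.41 and not called (adjusted p = 0.138, over all probe sets above the filter). Against vehicle this probe set was called higher in both inhibitor groups, by 0.58 with U0126 (adjusted p = 0.0282) and by 0.58 with SB202190 (adjusted p = 0.0234). The third, 1439258_at, lay between 0.964 and 4.55 on all arrays, below the filter. Averaged over all its probe sets, this low one included, Atf4 gave 0.34 with U0126 against FGF2 (adjusted p = 0.285). Against vehicle that average gave 0.45 with U0126 (adjusted p = 0.122) and 0.23 with SB202190 (adjusted p = 0.425). None of these averages was called.

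Atf5, a related factor that is also controlled at translation in stress, rose with FGF2 and rose further with U0126. Its signals were 1773 and 1636 in FGF2 with U0126, 924 and 830 in FGF2 with SB202190, 1065 and 1019 in FGF2, and 423 and 415 in vehicle. No groups overlapped, and the order was FGF2 with U0126, FGF2, FGF2 with SB202190 and vehicle. The change was 1.28 ± 0.07 with FGF2 (adjusted p = 3.35e-08), 0.73 ± 0.07 with U0126 against FGF2 (adjusted p = 1.61e-05) and -0.24 ± 0.07 with SB202190 against FGF2 (adjusted p = 0.0952). The neighbours FGF2 and FGF2 with SB202190 therefore did not differ beyond the threshold, while U0126 exceeded SB202190 by 0.97 (adjusted p = 1.36e-06).

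Ddit3 encodes CHOP, a factor induced by ATF4 that is linked to cell death under lasting stress. On probe set 1417516_at its signals were 683 and 599 in FGF2 with U0126, 370 and 336 in FGF2 with SB202190, 235 and 277 in FGF2, and 249 and 236 in vehicle. Both U0126 arrays stood above both SB202190 arrays, which stood above the other 4, and FGF2 and vehicle overlapped. With FGF2 the change was 0.09 ± 0.11 (95% interval -0.14 to 0.32, adjusted p = 0.558), with U0126 against FGF2 it was 1.30 ± 0.11 (adjusted p = 2.78e-06), and U0126 exceeded SB202190 by 0.84 (adjusted p = 9.26e-05). The SB202190 rise of 0.46 ± 0.11 had an adjusted p of 0.0349, and it missed the threshold when replicate 1 or 2 of FGF2 with SB202190 or replicate 1 or 2 of FGF2 was left out, with values of 0.35 to 0.57 and adjusted p of 0.0709 to 0.246. Against vehicle, by contrast, Ddit3 was higher by 1.39 with U0126 and by 0.55 with SB202190 (adjusted p = 6.15e-07 and 0.00112). The other Ddit3 probe set, 1443897_at, ran the opposite way at low signals: 3.05 and 2.07 in FGF2 with U0126, 5.04 and 8.01 in FGF2 with SB202190, 18.6 and 32.9 in FGF2, and 20.1 and 26.5 in vehicle. Its mean level was below the filter, so it did not enter the test. Averaging both probe sets turned the sign of the Ddit3 change with U0126 against FGF2 to -0.64, which was not called (adjusted p = 0.063).

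Atf3, an early stress-response factor and a target of ATF4, was highest in vehicle. Its signals were 65.7 and 67.0 in FGF2 with U0126, 54.9 and 37.1 in FGF2 with SB202190, 12.7 and 34.0 in FGF2, and 154 and 174 in vehicle. Vehicle stood apart from all other groups, and the lowest FGF2 array was near the filter. Atf3 fell by 2.81 ± 0.34 on the log2 scale with FGF2 (adjusted p = 2.75e-05) and rose by 1.57 ± 0.34 with U0126 against FGF2 (adjusted p = 0.00547). The rise was 0.90 without replicate 1 of FGF2 (adjusted p = 0.0402), and it was not called with a variance prior that ignores intensity (adjusted p = 0.0713). SB202190 against FGF2 gave 1.04 ± 0.34 (adjusted p = 0.131), called only without replicate 2 of FGF2 (1.70, adjusted p = 0.0239). Even with U0126 Atf3 stayed below vehicle, by -1.24 ± 0.34 (adjusted p = 0.0141), a call that was lost without either U0126 array or without vehicle replicate 2 (adjusted p of 0.058 to 0.0893). The call against vehicle with U0126 was also lost with a variance prior that ignores intensity (adjusted p = 0.0945). With SB202190 Atf3 was also below vehicle, by -1.77 ± 0.34 (adjusted p = 0.00118).

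Cebpb encodes C/EBP beta, which binds DNA as a partner of ATF4. It had signals of 650 and 690 in FGF2 with U0126, 418 and 379 in FGF2 with SB202190, 414 and 429 in FGF2, and 542 and 589 in vehicle on probe set 1418901_at. The U0126 arrays were highest, vehicle came next, and FGF2 and FGF2 with SB202190 overlapped at the bottom. The gene fell by 0.45 ± 0.08 with FGF2 (adjusted p = 0.000733) and rose by 0.65 ± 0.08 with U0126 against FGF2 (adjusted p = 9.66e-05). With U0126 it ended 0.21 ± 0.08 above vehicle, which was not called (adjusted p = 0.0708) except without normalization (adjusted p = 0.0381) or with arrays centred on their medians (0.45, adjusted p = 0.00247), and with SB202190 it was 0.53 ± 0.08 below vehicle (log2 change of -0.53, adjusted p = 0.000201). The second probe set, 1427844_a_at, had means of 269 ± 17.6 in FGF2 with U0126, 153 ± 11.4 in FGF2 with SB202190, 154 ± 25.7 in FGF2 and 229 ± 2.58 in vehicle (SD, n = 2 each), with the same calls against FGF2 and vehicle. With arrays centred on their medians in place of quantiles, the fall with FGF2 was -0.22 and not called (adjusted p = 0.103).

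**Figure D2:**
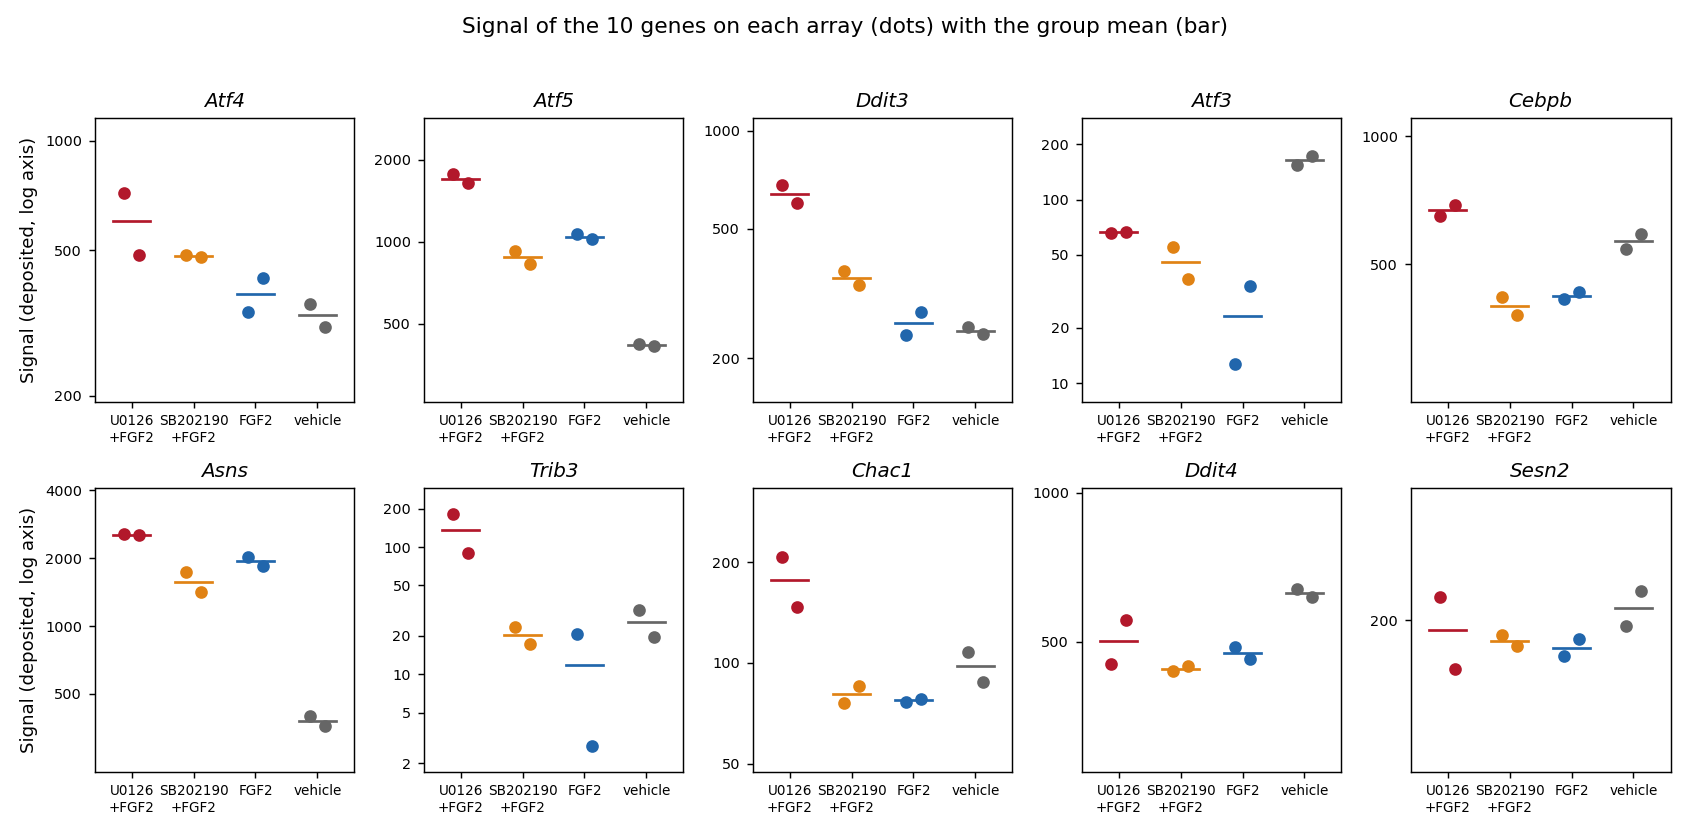
Signals of the probe set that represents each of the 10 genes, on log axes that differ between genes, in the 2 arrays of FGF2 with U0126, FGF2 with SB202190, FGF2 and vehicle, with arrays as dots and group means as bars. Asns and Atf5 are lowest in vehicle, Atf3 is highest there at 154 and 174, and Trib3 stands out in FGF2 with U0126 at 181 and 89.6.

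Asns, asparagine synthetase and a textbook ATF4 target, gave the largest rise with FGF2 among the 10 genes. Its signals were 2556 and 2535 in FGF2 with U0126, 1733 and 1417 in FGF2 with SB202190, 2016 and 1854 in FGF2, and 397 and 360 in vehicle on probe set 1451095_at. The groups did not overlap, and vehicle lay far below the rest. The change was 2.32 ± 0.09 with FGF2 (adjusted p = 1.04e-09), and U0126 against FGF2 gave 0.44 ± 0.09 (adjusted p = 0.00273), a call that was lost with a variance prior that ignores intensity (adjusted p = 0.0667). SB202190 against FGF2 gave -0.30 ± 0.09 (adjusted p = 0.0828), called only without replicate 1 of FGF2 with SB202190 (-0.43, adjusted p = 0.0245) or with the replicate number as a block, and U0126 exceeded SB202190 by 0.73 ± 0.09 (adjusted p = 5.3e-05). The second probe set, 1433966_x_at, had means of 2045 ± 32.6 in FGF2 with U0126, 1342 ± 169 in FGF2 with SB202190, 1554 ± 17.8 in FGF2 and 264 ± 8.45 in vehicle (SD, n = 2 each) and the same calls.

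Chac1 encodes an enzyme that breaks down glutathione. It had signals of 207 and 147 in FGF2 with U0126, 75.7 and 85.3 in FGF2 with SB202190, 76.6 and 78.2 in FGF2, and 108 and 87.8 in vehicle. Both U0126 arrays lay above all 6 others. The gene rose by 1.12 ± 0.18 with U0126 against FGF2 (adjusted p = 0.000654), by 1.07 against SB202190 (adjusted p = 0.000836) and by 0.87 against vehicle (adjusted p = 0.00216). FGF2 against vehicle gave -0.25 ± 0.18 (95% interval -0.64 to 0.14), and SB202190 against FGF2 gave 0.05 ± 0.18 (95% interval -0.34 to 0.44), and neither was called.

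Trib3, a pseudokinase that is induced by CHOP and ATF4 and dampens them in feedback, had the widest spread between arrays of the 10 genes. On probe set 1426065_a_at the signals were 181 and 89.6 in FGF2 with U0126, 23.6 and 17.2 in FGF2 with SB202190, 20.8 and 2.74 in FGF2, and 32.3 and 19.6 in vehicle. On 1456225_x_at they were 128 and 87.3, 19.1 and 23.6, 6.95 and 35.5, and 23.7 and 3.73 in the same order of groups. On both probe sets the U0126 arrays were the highest of the 8, the other groups overlapped, and 1 FGF2 and, on the second, 1 vehicle array were below the signal of 12.4 at the filter, so the size of the fold change rests on low signals. The rise with U0126 against FGF2 was 3.65 ± 0.60 (adjusted p = 0.000809), and 2.49 without replicate 2 of FGF2 (adjusted p = 0.00385). Over the 18 alternatives in which the gene could be tested it ranged from 2.45 to 4.82 and was called in each. The second probe set rose by 2.54 (adjusted p = 0.0278, over all probe sets above the filter, of which 16.3% were called). On it U0126 exceeded vehicle by 3.39 (adjusted p = 0.00363), while the 2.17 against SB202190 was not called (adjusted p = 0.0549). On the first probe set U0126 exceeded SB202190 by 2.51 (adjusted p = 0.00893) and vehicle by 2.42 (adjusted p = 0.00752). The SB202190 comparison lost its call without replicate 1 of FGF2 with U0126 or replicate 2 of FGF2 with SB202190 (adjusted p of 0.0995 and 0.0721), and the vehicle comparison without replicate 1 of FGF2 with U0126 or vehicle replicate 2 (adjusted p of 0.0916 and 0.0614). Both calls were also lost with a variance prior that ignores intensity, with adjusted p of 0.0934 against SB202190 and 0.0773 against vehicle. FGF2 against vehicle gave -1.23 on the first probe set and 0.84 on the second, neither called. The first value was called without replicate 1 of FGF2, at -2.39 (adjusted p = 0.00313).

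**Figure D3:**
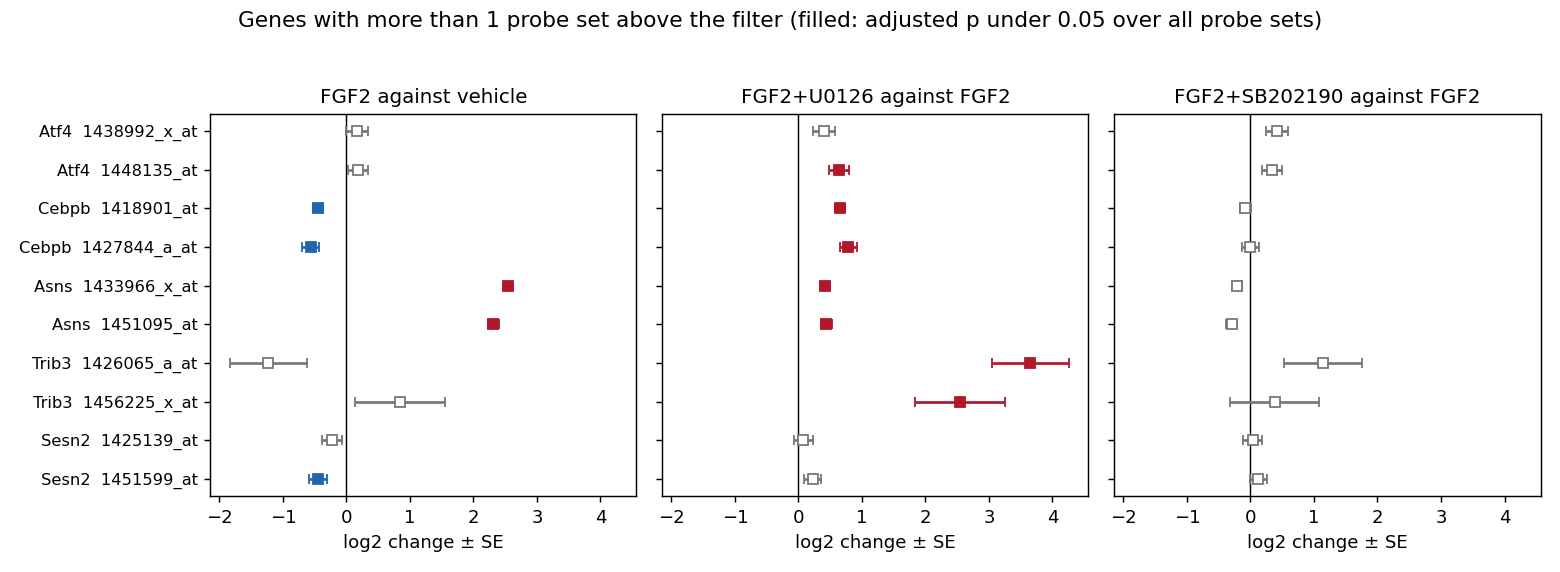
Log2 changes with their SE of the 10 probe sets of the 5 genes that had more than 1 above the filter, in FGF2 against vehicle, FGF2 with U0126 against FGF2 and FGF2 with SB202190 against FGF2, where filled squares were called over all probe sets. The Trib3 pair lies on opposite sides of 0 with FGF2, at -1.23 and 0.84, and on the same side with U0126, at 3.65 and 2.54, while the Asns and Cebpb pairs lie close together in each panel.

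Ddit4 and Sesn2 both restrain the growth kinase complex mTORC1 and are known ATF4 targets, and they were the members that U0126 left uncalled. Ddit4 had signals of 450 and 553 in FGF2 with U0126, 436 and 446 in FGF2 with SB202190, 486 and 460 in FGF2, and 638 and 616 in vehicle. Vehicle was above all other arrays, and the FGF2 and U0126 arrays overlapped. Ddit4 fell by 0.43 ± 0.09 with FGF2 (adjusted p = 0.00252), and U0126 against FGF2 gave 0.06 ± 0.09 (95% interval -0.14 to 0.27). When arrays were centred on their medians the fall was -0.21 and not called (adjusted p = 0.162), and U0126 against vehicle gave -0.12 (adjusted p = 0.444). A variance prior that ignores intensity also left U0126 against vehicle uncalled (adjusted p = 0.0645). Ddit4 was also below vehicle by -0.37 with U0126 (adjusted p = 0.00872), a call lost when replicate 1 of FGF2 with U0126 or of vehicle was left out (adjusted p of 0.0973 and 0.0623), and by -0.54 with SB202190 (adjusted p = 0.000514). Against SB202190, U0126 gave 0.17 (95% interval -0.03 to 0.37), which was called only without replicate 1 of FGF2 with U0126 (0.31, adjusted p = 0.0371).

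Sesn2 was the flattest of the 10 genes, with group means that spanned 0.23 on the log2 scale. Probe set 1425139_at had signals of 222 and 161 in FGF2 with U0126, 187 and 178 in FGF2 with SB202190, 170 and 184 in FGF2, and 195 and 228 in vehicle. The U0126 arrays enclosed nearly all others, and none of the 6 comparisons was called on this probe set. U0126 against FGF2 gave 0.08 (95% interval -0.25 to 0.40). The second probe set, 1451599_at, with means of 194 ± 27.2 in FGF2 with U0126, 178 ± 3.82 in FGF2 with SB202190, 164 ± 26.4 in FGF2 and 226 ± 11.3 in vehicle (SD, n = 2 each), was lower with FGF2 than with vehicle by -0.45 (adjusted p = 0.0247, over all probe sets above the filter, of which 30.5% were called).

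Set against vehicle, FGF2 with U0126 had 6 of the 10 genes higher and 2 lower, where 31.7% of all genes tested were called. The 6 were Atf4, Atf5, Ddit3, Trib3, Chac1 and Asns, the 2 were Atf3 and Ddit4, and the median was 0.85 against 0.01 over all genes. FGF2 with SB202190 had 4 higher (Atf4, Atf5, Ddit3 and Asns) and 3 lower (Atf3, Ddit4 and Cebpb), where 35.8% were called, with a median of -0.14 against 0.01. The comparisons with FGF2 and with vehicle share arrays and are not independent of each other.

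Most genes whose products form or act on eIF2 were not called, and the shares called were near the background of 37.9% with FGF2 and 22.1% with U0126. With SB202190 against FGF2, 3 of 16 were called, a larger share than the background of 3.02%. Of 16 measured genes for eIF2 kinases, eIF2 and eIF2B subunits and the phosphatase that resets eIF2, FGF2 raised 3 and lowered 2, with a median of 0.03. Eif2s2 and Eif2s3x, eIF2 subunits, rose by 0.71 ± 0.05 and 0.48 ± 0.06, and Impact, an inhibitor of the kinase GCN2, and Ppp1r15b, a phosphatase subunit, fell by 0.69 ± 0.08 and 0.55 ± 0.10. With U0126 against FGF2, 3 rose and 1 fell with a median of -0.01: Impact rose by 1.02 ± 0.08, Ppp1r15a, the stress-induced phosphatase subunit GADD34, by 0.42 ± 0.12 (adjusted p = 0.0239) and Eif2s2 by 0.23 ± 0.05, while Eif2s3x fell by 0.19 ± 0.06. The 4 calls became 2 without replicate 2 of FGF2 with U0126 or without replicate 1 or 2 of FGF2. SB202190 raised Impact by 0.36 ± 0.08 and lowered Eif2s2 by 0.28 ± 0.05 and the eIF2B subunit Eif2b2 by 0.31 ± 0.08, with a median of -0.04 over the list, and these 3 calls became 0 without replicate 2 of FGF2 with SB202190 or without replicate 1 or 2 of FGF2.

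Of 19 measured genes of amino acid synthesis and transport known as ATF4 targets, 13 rose with FGF2, 1 fell and 5 were not called, with a median of 1.09 and a background of 18.9% called higher. Slc7a5, the large neutral amino acid transporter, rose by 2.07 ± 0.09, Psph and Phgdh, enzymes of serine synthesis, by 1.75 ± 0.07 and 1.25 ± 0.07, and Aldh18a1, an enzyme of proline synthesis, by 1.56 ± 0.08. The glutamine transporter Slc38a2 fell by 1.11 with FGF2 (adjusted p = 4.51e-07). U0126 against FGF2 raised 11 and lowered 0, with a median of 0.42 and a background of 11.6% called higher. The 11 included Cth, which makes cysteine, at 1.56 ± 0.17, Mthfd2, a mitochondrial folate enzyme, at 1.47 ± 0.18, Slc7a11, the cystine transporter, at 1.08 ± 0.13, and its partner Slc3a2 at 0.42 ± 0.07. The 11 calls were 7 without replicate 1 of FGF2 with U0126. With SB202190 1 rose and 2 fell, with a median of -0.23 and a background of 1.32% called higher and 1.7% lower. Slc7a11 rose by 0.66 ± 0.13, and Slc3a2 and Slc38a2 fell by 0.28 ± 0.07 and 0.36 ± 0.09, but these 3 calls became 0 without replicate 2 of FGF2 with SB202190 or without replicate 1 or 2 of FGF2.

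Cytosolic aminoacyl-tRNA synthetases, which charge tRNAs and of which many are ATF4 targets, rose with FGF2 in 17 of 19 cases and fell in 0. The median was 0.65, and the background was 18.9% called higher. Wars, Nars, Rars and Hars rose by 1.21 ± 0.09, 0.89 ± 0.07, 0.87 ± 0.06 and 0.77 ± 0.05. U0126 against FGF2 raised 6 and lowered 1, with a median of 0.15 and a background of 11.6% called higher and 10.5% lower. Aars rose by 0.80 ± 0.10, Cars by 0.54 ± 0.11 and Sars by 0.49 ± 0.08, while Hars fell by 0.52 ± 0.05 (log2 change of -0.52). With SB202190 limma called 0 of 19, where 3.02% of all genes tested were called. An unadjusted p under 0.05 was found for 8 of the 19, and the median was -0.16. Sars and Mars1 came closest at -0.30 and -0.34 (adjusted p = 0.0681 and 0.0684). Sars, Mars1, Gars and Tars, the 4 with the smallest p, were all below 0.

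Of 17 measured other genes known as ATF4 or CHOP targets, U0126 against FGF2 raised 9 and lowered 0, with a median of 0.25. The background was 11.6% called higher and 10.5% lower. Eif4ebp1, a brake on cap-dependent translation, and Sqstm1, an autophagy receptor, rose by 0.70 each (SE 0.07 and 0.05), Gabarapl1, an autophagosome protein, by 0.56 ± 0.06, and Xpot, which exports tRNA from the nucleus, by 0.43 ± 0.09. The 9 calls were 5 without replicate 1 of FGF2 with U0126 and 4 without replicate 2 of FGF2. FGF2 against vehicle raised 7 and lowered 5, with a median of 0.35 and a background of 18.9% called higher and 19% lower. Nupr1, a stress-induced chromatin protein, and Eif4ebp1 rose by 1.85 ± 0.09 and 1.56 ± 0.07, and the autophagosome genes Map1lc3b and Gabarapl1 fell by 0.76 ± 0.07 and 0.66 ± 0.06. With SB202190 1 rose and 2 fell, with a median of 0.07 and a background of 1.32% called higher and 1.7% lower. Gadd45a, a growth-arrest gene, rose by 0.97 ± 0.07, Nupr1 fell by 1.51 ± 0.09, and Ero1a, an oxidase of the endoplasmic reticulum, fell by 0.44 ± 0.09.

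Endoplasmic reticulum chaperones, controlled mainly by ATF6 and XBP1 in the unfolded protein response, moved the other way from the 10 genes with U0126. Against FGF2, 13 of 20 fell and 0 rose, with a median of -0.40, where 10.5% of all genes tested were called lower. Calr fell by 0.63 ± 0.06, Hspa5, the chaperone BiP, by 0.60 ± 0.06, Pdia6 by 0.59 ± 0.06 and Hsp90b1 by 0.50 ± 0.06. FGF2 against vehicle raised 7 and lowered 2, with a median of 0.01 and a background of 18.9% called higher and 19% lower. Pdia6 and Sec61b rose by 0.54 each, Hspa5 by 0.41 and Manf by 0.33. SB202190 lowered 5 and raised 0, with a median of -0.14, where 1.7% of all genes tested were called lower. Among the 5 were Dnajc3, an inhibitor of the eIF2 kinases, at -0.46 ± 0.08, and Dnajb9 at -0.34 ± 0.05. Fewer than these 5 were called when either array of FGF2 with SB202190 or either array of FGF2 was left out.

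**Figure D4:**
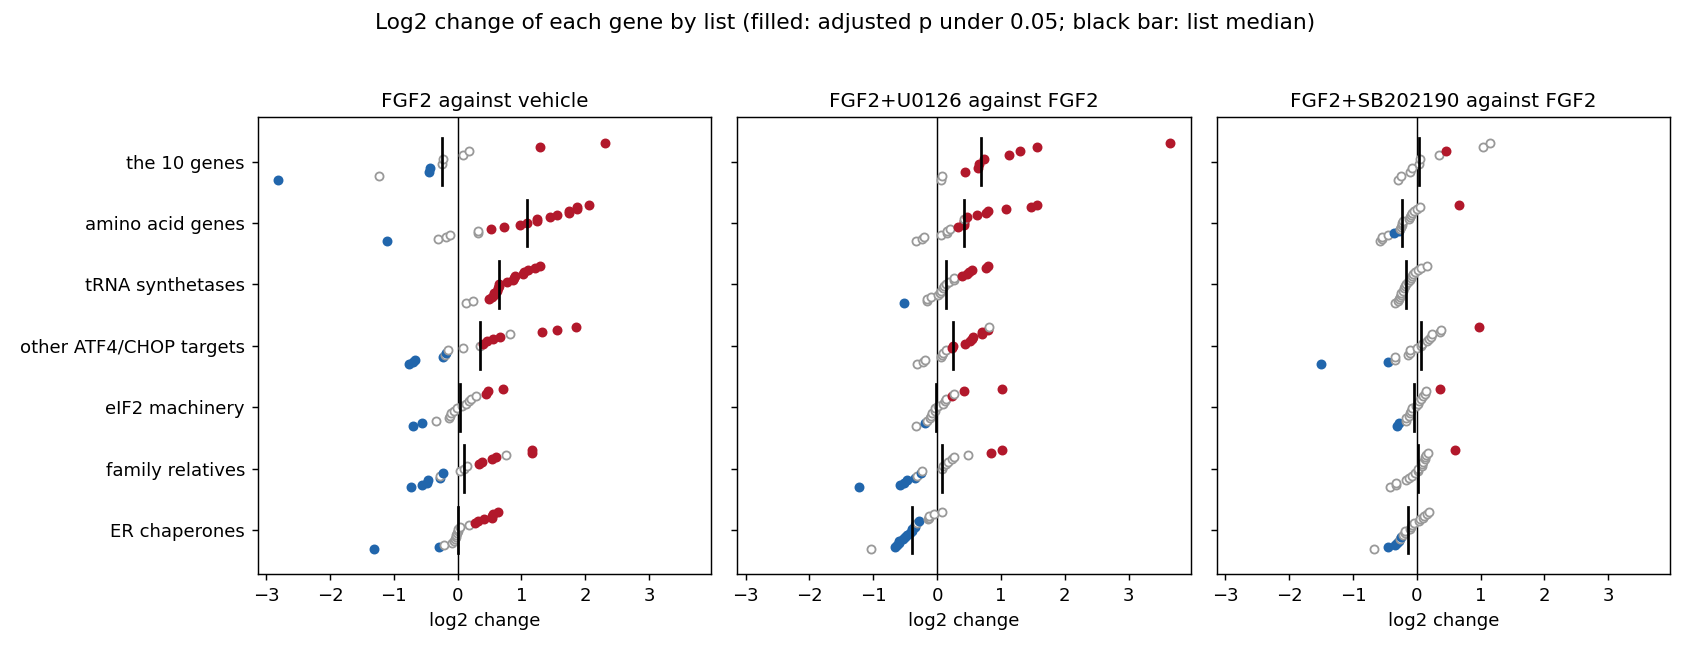
Log2 changes of single genes of the 10-gene group and of 6 other lists, in FGF2 against vehicle, FGF2 with U0126 against FGF2 and FGF2 with SB202190 against FGF2, where filled points (red higher, blue lower) were called, open points were not, and the black bar is the median. With U0126 the 10-gene group has a median of 0.69 and the chaperones one of -0.40, and with FGF2 the amino acid genes have a median of 1.09.

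Across the 8 arrays, some genes outside the group followed single members closely, given here as a description since the 8 arrays share 4 treatments. Asns ran with Shmt2, a mitochondrial serine enzyme, at r = 0.998, Slc7a5 at 0.998 and Emg1 at 0.996. Atf3 ran with Rcsd1 at 0.987, Fkbp15 at 0.973 and Ppp1r15b at 0.973. For Trib3 the closest genes were Dhx16 at 0.976, Septin3 at 0.969 and Twistnb at 0.967, and for Atf4 they were Pde12 at 0.970, Ppp2ca at 0.956 and Nploc4 at 0.953. The group means of Pde12, Ppp2ca, Dhx16 and Twistnb spanned only 0.26, 0.12, 0.24 and 0.30 on the log2 scale, against 0.82 for Atf4 and 3.65 for Trib3.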

How the data were processed

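The deposited values were linear intensities of 45101 probe sets. How the authors computed them is not given in the sources used here. Each array had a mean of 150.001 after 2% of values were trimmed at each end. Genes were named from the 34958 probe sets with 1 symbol in the platform annotation. Values were taken to log2(value + 1.77), the pseudocount being the 10th percentile of all values, which understates changes of low genes, and quantile normalized. Each gene was represented by its brightest probe set on average, and genes under the 40th percentile of mean level (log2 3.83) were left out, which left 13174 of 18194. All 8 arrays entered 1 limma fit (3.58.1, R 4.3.3) with an intensity trend, with 4 residual and 8.99 prior degrees of freedom. Its two-sided p-values were adjusted by Benjamini and Hochberg within each comparison, over probe sets where stated, and the number of arrays limits precision.

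The members and the other gene lists were chosen with earlier results of these data known, so no list is independent support. All members are named, with up to 4 genes of smallest p per list and comparison, and for Atf4 and the 3 members of widest range the 3 genes of highest Pearson r. The fit was tested on simulated data. Same-numbered replicates deviated together with correlations of at most 0.034, so the number was not taken as a pairing. Promoter sequences are from RefSeq, and figures were drawn with matplotlib 3.10.9. Alternatives were other normalizations, pseudocounts, filters, variance priors, probe set rules, the replicate number as a block, only the arrays of a comparison, and leaving out each array. The array's genome build is not given in the sources used here, so probe set positions were not used. Of per-sample columns 0 were left unused.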

Additional observations from a re-analysis of the deposited data

How the results depend on the processing

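Among 60 results (10 genes in 6 comparisons), 35 were called. Of these 35, 19 kept their call under every one of the 20 alternatives in which they could be tested. A further 12 lost it with the sign kept under at least 1. The 5 of Ddit3 changed sign with the mean of probe sets and were not called there (adjusted p of 0.063 to 0.919). Of these 5, SB202190 against FGF2 is also among the 12. Averaged over all its probe sets, Ddit3 gave -0.64 for U0126 and -0.59 for SB202190 against FGF2, -0.45 and -0.40 against vehicle, and -0.0459 for U0126 against SB202190, because that mean holds the low probe set 1443897_at. Of the 25 results not called, 7 were called under some alternative. The cause of each change was not tested unless stated. With a variance prior that ignores intensity, U0126 against FGF2 called 1619 genes, not 2916, and 5 members, not 8, all 5 higher (Atf3, Atf4 and Asns lost the call), SB202190 against FGF2 called 0 genes (1819 at an unadjusted p under 0.05) and 0 members, U0126 against vehicle 5 members and U0126 against SB202190 1735 genes. For U0126 against FGF2 it also called 3 of the other ATF4 or CHOP targets, not 9, and 4 tRNA synthetases, not 7, while the chaperones called ranged from 9 to 14 over all alternatives. With the mean of probe sets the counts of genes were 1782, 170 and 1783 for U0126 against FGF2, SB202190 against FGF2 and U0126 against SB202190, and members called were 0 for SB202190 against FGF2, with 2 called higher for SB202190 against vehicle. Median centring left 235 genes called for SB202190 against FGF2, against 398. It moved the median over all genes to 0.16 for FGF2 against vehicle, and 73.1% of calls were then higher, against 49.9%. Ddit4 and Cebpb lost their falls with FGF2, and Atf4 rose by 0.39 (adjusted p = 0.0275). Probe sets whose names end in s, x or a can bind several transcripts. Without them Atf5 and Trib3 could not be tested, as all their probe sets have such names. With FGF2 1 member was then called higher.

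Without 1 array, genes called ranged from 3842 to 5016 for FGF2 against vehicle, 1786 to 2925 for U0126 against FGF2, 81 to 399 for SB202190 against FGF2, 3131 to 4080 for U0126 and 3670 to 4742 for SB202190 against vehicle, and 1810 to 3011 for U0126 against SB202190. Members called ranged from 5 to 6, 7 to 8, 0 to 1, 5 to 8, 6 to 7 and 5 to 7 in that order, and members called higher from 2 to 2, 7 to 8, 0 to 1, 5 to 6, 3 to 4 and 5 to 7. Same-numbered samples share only a number. With the replicate number as a block, SB202190 against FGF2 called 2 members, Ddit3 and Asns (-0.30, adjusted p = 0.0359), and Trib3 was called lower with FGF2 (-1.23, adjusted p = 0.0398). The block moved no other count of members by over 1.5 times.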

Other observations

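Relatives of the 10 genes did not follow them. Of 17 measured relatives, U0126 against FGF2 raised 2 and lowered 6, with a median of 0.07. The background was 11.6% called higher and 10.5% lower. Ddit4l, the paralogue of Ddit4, rose by 1.01 ± 0.06 with U0126 and by 0.60 ± 0.06 with SB202190, where Ddit4 was not called; its signals averaged 2401 ± 25.1 in FGF2 with U0126, 1862 ± 16.2 in FGF2 with SB202190, 1209 ± 10.6 in FGF2 and 1075 ± 34.4 in vehicle (SD, n = 2 each). Sesn1 and Sesn3, paralogues of Sesn2, fell by 0.59 ± 0.08 and 0.53 ± 0.08 with U0126. Xbp1, a factor of the unfolded protein response that drives chaperone genes, fell by 0.47 ± 0.06 with U0126. FGF2 against vehicle raised 6 and lowered 6 relatives, with a median of 0.11 and a background of 18.9% called higher and 19% lower. Trib2 and Cebpa rose by 1.16 each (SE 0.10 and 0.20), and Cebpd and Sesn1 fell by 0.73 ± 0.07 and 0.47 ± 0.08. The 12 calls were 4 with the mean of probe sets and 7 without probe sets that can bind several transcripts. SB202190 called Ddit4l alone among the relatives, with a median of 0.03 over the list and a background of 3.02% called.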
